A study of Mus musculus with 12 samples.

Results

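The hypothalamus of wild-type (WT) mice fed a high-fat diet (HFD) was compared with that of WT mice fed a chow diet, gene by gene, by RNA sequencing of the whole tissue. Of 16438 genes listed for both diets, 12331 (75%) had a mean normalised read count of at least 100 on each diet, and these were the genes compared. The comparison rests on 6 of the study's 12 mice, 3 WT mice on chow and 3 WT mice on HFD. The other 6 mice were 3 Gpr75-/- mice on each diet, and their own diet difference was set beside that of the WT mice.

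All mice were C57BL/6J males of 8 weeks. HFD groups had eaten a diet with 60% of its calories as fat for the last 2 weeks, from the age of 6 weeks, and the chow groups a standard diet. WT mice were littermates of mice that lacked GPR75, a G protein-coupled receptor of neuronal cilia, in every cell. The Gpr75-/- allele carries an early stop made by genome editing, so that the transcript is still made and its level cannot check the labels. Gpr75 itself stood at 4.06 log2 CPM (read counts scaled to library size) in WT chow, 4.31 in WT HFD, 4.62 in Gpr75-/- chow and 4.21 in Gpr75-/- HFD mice. Transcripts that define the hypothalamus were present on both diets, with Pmch (melanin-concentrating hormone) at 7.94 and 7.82, Hcrt (orexin) at 6.84 and 6.73 and Oxt (oxytocin) at 6.78 and 6.89 log2 CPM in WT chow and WT HFD mice. Normalised read counts summed to 18280462 per mouse in the chow set and 19420111 in the HFD set.

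The values used are 1 mean per group, not 1 value per mouse, so no test between the diets could be made and no p-value is given. Each level is a mean log2 CPM, and each difference is WT HFD minus WT chow in log2 CPM, where 1 is a doubling. The number after ± is an expected error: the standard error that the spread between mice, as estimated within each diet set, gives to a difference between groups of 3 mice. Its median over the genes was 0.0965. Means were deposited rounded, which moved a difference by at most 0.0427 at the median gene and by at most 0.104 at any gene. A gene was called higher or lower at a difference of at least 0.3 in either direction. The chow mice and the HFD mice were analysed by the authors as separate sets, and whether their libraries were prepared together is not stated, so that diet and any batch cannot be told apart.

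The hypothalamus senses energy stores and drives feeding. Leptin and insulin act on arcuate neurons, where Pomc neurons restrain intake and Agrp/Npy neurons promote it, and both signal to the paraventricular nucleus. A few days of fat-rich food are known to change intake and glial state in this tissue, before much weight is gained. Corticosterone, the glucocorticoid of the mouse, crosses into the brain and binds a receptor that switches on a set of genes in neurons, glia and vessels.

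The WT diets differed modestly. Of the 12331 genes, 232 (1.88%) were higher and 384 (3.11%) were lower on HFD, and 169 (1.37%) and 285 (2.31%) of them also differed by more than 2 expected errors. At any size, 7.86% of the genes were above 0 and 7.20% below it by more than 2 expected errors. The median difference over all genes was 0, with a 5th percentile of -0.25 and a 95th of 0.22. The split between the directions depended on the centring: with the trimmed mean of 1000 highly expressed genes set to 0, 164 genes were higher and 523 lower. In the Gpr75-/- mice, 110 genes (0.892%) were higher and 316 (2.56%) were lower on HFD by the same threshold.

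**Figure D1:**
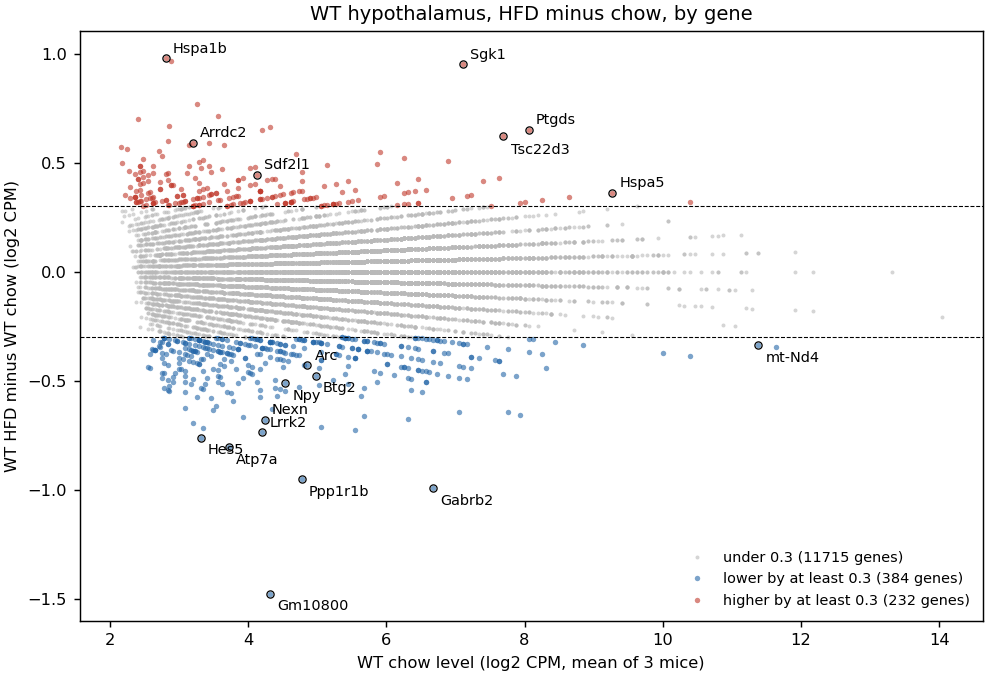
Difference between WT HFD and WT chow (vertical axis, log2 CPM) against the WT chow level (horizontal axis, log2 CPM, mean of 3 mice), with 1 point per gene and dashed lines at 0.3 in each direction. The 232 higher genes (red) and 384 lower genes (blue) are a small share of the 12331, Sgk1 and Gabrb2 lie far from 0 at well expressed levels, and the fine bands come from the rounding of the deposited means.

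Genes induced by glucocorticoids were higher on HFD in the WT hypothalamus. Of 20 listed, 18 were compared and 11 were called higher, 10 of them by more than 2 expected errors, and none was lower (all genes, 1.88% higher). The median difference of the 18 was 0.37, and that of all genes was 0. Because the samples are pieces of whole tissue, more RNA per cell and more cells of a type cannot be told apart, here or in any result that follows.

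Sgk1 encodes a kinase that adjusts ion channels and transporters, and it is a classic target of the glucocorticoid receptor. Its level was 7.11 in WT chow and 8.06 in WT HFD mice, a difference of 0.95 ± 0.27 or 1.93-fold. It lies on chromosome 10 from 21758083 to 21875802 in build GRCm39. Tsc22d3 encodes GILZ, a leucine zipper protein through which glucocorticoids restrain inflammation. It stood at 7.69 in WT chow and 8.32 in WT HFD mice, a difference of 0.62 ± 0.12. Arrdc2, an arrestin-domain gene, went from 3.20 to 3.79, a difference of 0.59 ± 0.16. All of these differences exceeded 3 expected errors. The spread between mice was wider on chow for Sgk1, whose standard error of the genotype difference was 0.362 in the chow set and 0.140 in the HFD set, but not for Tsc22d3, with 0.0721 and 0.150.

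The remaining members called higher included Sult1a1, a sulfotransferase (0.48 ± 0.18), Nfkbia, the inhibitor of NF-kB (0.46 ± 0.11), and Zbtb16, a zinc finger repressor (0.43 ± 0.21). Ddit4, which lowers mTORC1 activity, differed by 0.41 ± 0.13, and Errfi1, a brake on the EGF receptor, by 0.39 ± 0.10. Cdkn1a, the cell cycle inhibitor p21, differed by 0.35 ± 0.15 and Pdk4, which turns glucose use down in favour of fat, by 0.34 ± 0.14. Plin4, a lipid droplet protein, was past the threshold at 0.40 but within 1 expected error of 0.45. Fkbp5, which dampens the receptor, was under the threshold at 0.26 ± 0.11. The metallothionein genes Mt1 and Mt2, which respond to metals as well, had 0.06 ± 0.08 and 0.23 ± 0.23, and Klf9 and Per1 had -0.11 ± 0.08 and 0.00 ± 0.10.

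The WT chow group was the low one of the 4 groups for these genes. It alone had the lowest level for 15 of the 18 members (83.3%), against 27.3% of all genes compared. Over all genes, WT chow was alone lowest for 3369 and alone highest for 2980. These counts were 2146 and 1500 for WT HFD, 1450 and 1506 for Gpr75-/- chow, and 2178 and 2901 for Gpr75-/- HFD. WT chow was thus the group most often alone at either end. Tsc22d3 stood at 8.25 in Gpr75-/- chow and 8.32 in Gpr75-/- HFD mice, so that the 3 other groups lay within 0.1 of one another and the WT chow group alone stood below them. Arrdc2 had the same order, at 3.76 and 3.86 in the Gpr75-/- groups. Sgk1 differed between the diets in both genotypes, at 7.69 in Gpr75-/- chow and 8.32 in Gpr75-/- HFD mice. The list's median diet difference in the Gpr75-/- mice was 0.03, with 3 members higher (all genes, 0.892%) and 1 lower (2.56%). Whether the diet difference itself differs between the genotypes was not tested.

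**Figure D2:**
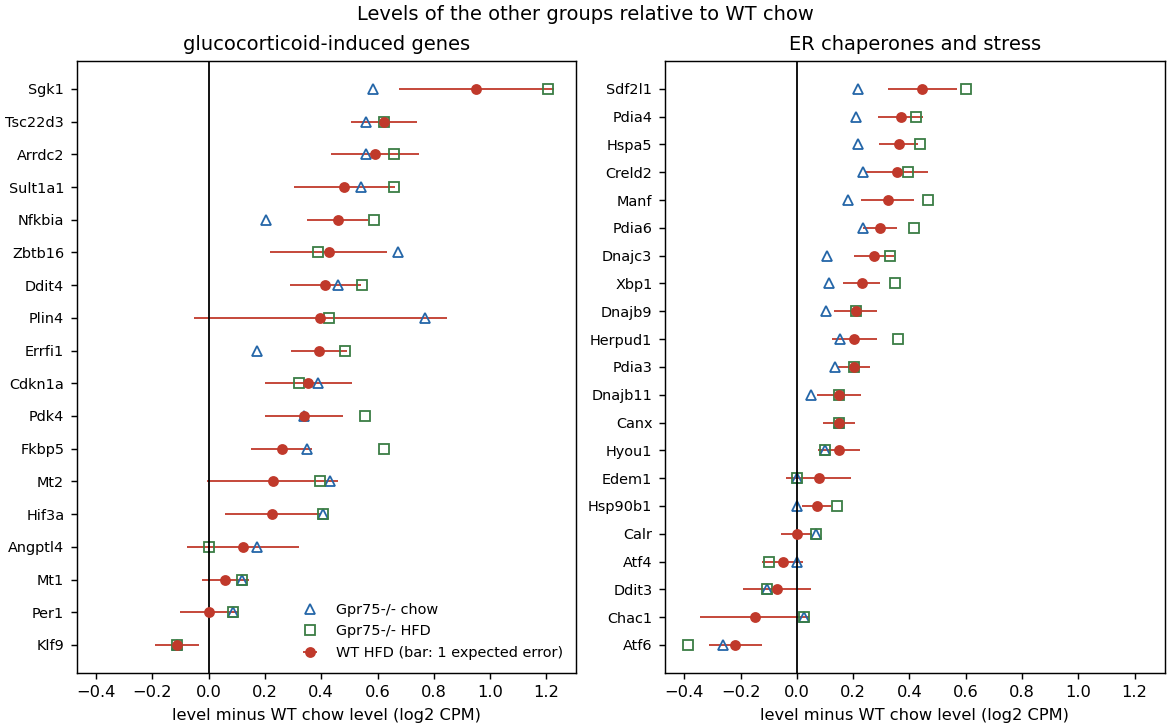
Levels of glucocorticoid-induced genes (left, 18 genes) and of endoplasmic reticulum (ER) chaperone and stress genes (right, 21 genes) in WT HFD, Gpr75-/- chow and Gpr75-/- HFD mice, each minus the WT chow level (horizontal axis, log2 CPM; the vertical line at 0 is WT chow, and bars are 1 expected error of the WT difference). For Tsc22d3 and Arrdc2 the 3 symbols nearly coincide to the right of 0, and for the ER chaperones at the top of the panel the Gpr75-/- chow group lies between WT chow and the HFD groups.

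One promoter is shown because it carries the receptor's textbook site. The palindrome AGAACA and TGTTCT, 3 bases apart, was searched on both strands from 250 bases before to 50 after each start in RefSeq promoters (GRCm38.p6), which were at hand for 9405 of the genes compared. Among the 16 list members with a promoter, Sgk1 alone had it (6.25%), in 1 of its 6 promoters. Of all 9405 genes it was likewise 1 (0.0106%). The stretch lies at chr10:21993661-21993755 on the plus strand of GRCm38.p6, the site begins 189 bases before the start, and capitals mark it:
Sgk1: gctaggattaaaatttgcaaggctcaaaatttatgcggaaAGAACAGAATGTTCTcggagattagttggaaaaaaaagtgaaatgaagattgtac
A match is a description of the letters, and binding was not measured. No match in the other 15 members says only that these letters are not in these windows.

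Some chaperones of the ER were higher on HFD, by small amounts. Secretory neurons fold large amounts of peptide precursors in the ER, and when folding lags, the sensors ATF6, IRE1 and PERK raise its chaperones. Of 22 listed genes, 21 were compared, 5 were called higher (all genes, 1.88%) and all 5 were past 2 expected errors (all genes, 1.37%), and none was lower. The list's median was 0.20, with 4 members below 0 and 1 at 0. At any size, 12 members had a positive difference past 2 expected errors (all genes, 7.86%) and 1, Atf6 itself, had a negative one (-0.22 ± 0.09).

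Sdf2l1, which keeps clients of the chaperone BiP soluble, stood at 4.13 in WT chow and 4.58 in WT HFD mice (0.45 ± 0.12). Pdia4, a disulfide isomerase, stood at 6.41 and 6.78 (0.37 ± 0.08). Hspa5, which encodes BiP, the main ER chaperone, stood at 9.27 and 9.63 (0.36 ± 0.07). Creld2 (0.35 ± 0.11) and Manf (0.32 ± 0.09), both secreted ER stress proteins, were the other members called. Pdia6 fell just short of the threshold at 0.30 ± 0.06, and the spliced stress factor gene Xbp1 had 0.23 ± 0.07. Among genes of the PERK branch, Atf4 was at -0.05 ± 0.07, Ddit3 (CHOP) at -0.07 ± 0.12 and Chac1 at -0.15 ± 0.19. Calr, the calcium-binding chaperone calreticulin, had 0.00 ± 0.05.

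The Gpr75-/- mice had a positive median for the same list (0.11), with 1 member called higher (all genes, 0.892%). Sdf2l1 went from 4.35 to 4.74 in them, a difference of 0.38. Hspa5 went from 9.48 to 9.70, a difference of 0.22. The WT chow group alone was lowest for 14 of the 21 members (66.7%; all genes, 27.3%).

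The ER stress element, CCAAT followed after 9 bases by CCACG, was found on either strand in the promoters of 7 of 18 members with a promoter (38.9%) and of 18 of all 9405 genes (0.191%). No motif searched contains another. The 7 were Calr, Canx, Creld2, Dnajc3, Hsp90b1, Hspa5 and Pdia6. Of these, Hspa5 and Creld2 were called and Pdia6 fell just short, while Calr had 0.00 and Hsp90b1 had 0.07 ± 0.05. All 7 carry the element, and members without it were not set beside them. Whether the element goes with the size of the difference was therefore not tested. The promoters of 5 are printed, in GRCm38.p6 and along the gene's own strand, with the element in capitals, so that the shared ends and the unlike middle can be read. They are Hspa5 at chr2:34771985-34772083, Pdia6 at chr12:17266451-17266549, Dnajc3 at chr14:118937787-118937885 and Creld2 at chr15:88819480-88819578 on the plus strand and Canx at chr11:50325760-50325858 on the minus strand. The element begins 65, 98, 105, 126 and 145 bases before the start, in that order, and in Creld2 it lies in reverse:
Hspa5: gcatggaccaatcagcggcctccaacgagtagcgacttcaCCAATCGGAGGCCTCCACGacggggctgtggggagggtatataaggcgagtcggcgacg
Pdia6: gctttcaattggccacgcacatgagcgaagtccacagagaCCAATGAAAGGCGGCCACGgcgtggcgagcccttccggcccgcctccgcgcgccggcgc
Dnajc3: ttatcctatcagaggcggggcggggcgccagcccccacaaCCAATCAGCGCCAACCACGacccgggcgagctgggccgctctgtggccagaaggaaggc
Creld2: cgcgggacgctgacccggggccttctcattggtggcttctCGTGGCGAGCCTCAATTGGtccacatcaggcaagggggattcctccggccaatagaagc
Canx: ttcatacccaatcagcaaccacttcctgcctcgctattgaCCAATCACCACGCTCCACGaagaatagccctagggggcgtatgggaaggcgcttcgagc

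Heat shock genes of the cytosol and mitochondria, which HSF1 controls, had a median of 0.15 over 18 of 18 members compared, or 0.0757 with each difference moved towards 0 by all that rounding allows. Hspa1b, the inducible Hsp70, had the largest positive difference of any protein-coding gene compared at 0.98 ± 0.33, with levels of 2.81 in WT chow and 3.79 in WT HFD mice. Its near-identical neighbour Hspa1a differed by 0.41 ± 0.17, and reads from either copy could have been assigned to the other. Dnajb1, the Hsp40 partner, was the only other member called, at 0.30 ± 0.08. All 3 were past 2 expected errors, and 1.88% of all genes were called higher. Of the abundant chaperones, Hspa8 had 0.17 ± 0.05 and Hsp90ab1 -0.08 ± 0.05, and Hsp90aa1, the inducible HSP90, had -0.16 ± 0.05 and was the 1 member below 0 by more than 2 expected errors. In the Gpr75-/- mice Hspa1b stood at 3.50 and 3.72, both above the WT chow level. The WT chow group alone was lowest for 13 of the 18 members (72.2%; all genes, 27.3%).

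Genes of cholesterol synthesis leaned upwards without any call. The pathway runs from acetyl-CoA through mevalonate and squalene, SREBP2 controls it, and the brain makes its own cholesterol behind the blood-brain barrier. Of 22 members compared, 16 had a positive difference, 9 of them past 2 expected errors (all genes, 7.86%), and none reached 0.3, so that the share called was 0 against 1.88% of all genes. Sqle, which oxidises squalene, had 0.27 ± 0.07 with levels of 6.67 and 6.94. Idi1 followed with 0.25 ± 0.07 and Sc5d with 0.23 ± 0.06, while Srebf2, the gene of SREBP2 itself, had -0.06 ± 0.07. The WT chow group alone was lowest for 13 of the 22 members (59.1%), and the list's median in the Gpr75-/- mice was -0.02. The sterol element TCAC and CCAC, 1 base apart, was found on either strand in 1 of 16 promoters of the list (6.25%, Hmgcs1) and in 1.38% of all promoters.

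Among the feeding peptides, Npy stood out. Npy encodes neuropeptide Y, which drives feeding from arcuate neurons and is also made by interneurons elsewhere. Its level was 4.54 in WT chow and 4.03 in WT HFD mice, a difference of -0.51 ± 0.13 or 0.701-fold, and in the Gpr75-/- mice it was 4.46 and 4.50. Npy lies on chromosome 6 from 49799690 to 49806487 (GRCm39). Agrp, its partner in the arcuate neurons, was below the level filter, with a mean normalised count of 56.0 in the chow set and 49.9 in the HFD set. Its mean level was 1.43 in WT chow and 1 in WT HFD mice, a difference of -0.43 ± 0.29.

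Pomc, the precursor of the satiety peptide alpha-MSH, stood at 4.10 in WT chow and 4.35 in WT HFD mice (0.25 ± 0.15). In the Gpr75-/- mice the level was 3.82 on chow and 4.82 on HFD, a difference of 0.99. Cartpt, made by the same neurons, had 0.05 ± 0.15 in WT. Of 26 listed peptides 17 were compared, with a median of 0, none higher and 2 lower (all genes, 3.11%), Npy and Penk. Penk, the enkephalin precursor, had -0.39 ± 0.29, which is within 2 expected errors, and it is also a gene of the striatum. Hcrt and Pmch of the lateral hypothalamus had -0.11 ± 0.14 and -0.12 ± 0.14, Crh 0.03 ± 0.15, Trh 0.05 ± 0.10 and Gal 0.04 ± 0.10, all within 1 expected error.

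Receptors for these signals were flat or slightly higher. Of 23 listed, 18 were compared, 14 had a positive difference, and the median was 0.09. Calcr, the calcitonin receptor through which amylin acts, was the only one called (all genes, 1.88%), at 0.31 ± 0.11. Cnr1, the cannabinoid receptor, had 0.22 ± 0.09 and Npy2r, an NPY autoreceptor, 0.21 ± 0.09. Insr, the insulin receptor, was just short of a call in the other direction, with levels of 5.28 and 4.98 and a difference of -0.30 ± 0.10. Its transcript is 9355 bases long, which places it among the long transcripts described further on. Gpr75 itself had 0.25 ± 0.26. Lepr and Mc4r, the leptin and melanocortin receptors, were below the level filter at 1.69 and 1.41 and at 2.03 and 2.16 in WT chow and WT HFD mice.

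Genes of leptin and insulin feedback had small differences in WT. Of 18 listed, 17 were compared, with a median of -0.05. Socs3, the leptin-induced inhibitor, was below the filter at 1.10 and 1.06. Foxo1, which insulin silences, had -0.21 ± 0.10, Igf1r -0.20 ± 0.08 and Stat3, the leptin receptor's transcription factor, 0.10 ± 0.07. Igfbp2 was the 1 member called (all genes, 3.11% lower), at -0.38 with an expected error of 0.62. Among 18 neurosecretory genes compared, with a median of 0.02, Avp (vasopressin) alone was called higher (all genes, 1.88%), at 0.32 ± 0.22 and thus within 2 expected errors. Pcsk1, the convertase that cuts peptide precursors, had 0.20 ± 0.07.

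Activity-induced immediate early genes leaned lower on HFD. These genes are transcribed within minutes of neuronal firing. Of 24 listed, 16 were compared, 4 were called lower and none higher (all genes, 3.11% lower), and the median was -0.18. Btg2, an antiproliferative cofactor, stood at 4.98 in WT chow and 4.50 in WT HFD mice (-0.48 ± 0.12). Arc, a synaptic capsid-like protein, stood at 4.86 and 4.43 (-0.43 ± 0.13). Dusp1, a MAP kinase phosphatase, had -0.35 ± 0.11. Egr3 had -0.53 but an expected error of 0.38. Fos had -0.23 ± 0.10, Egr1 -0.16 ± 0.09 and Jun -0.04 ± 0.09.

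The Gpr75-/- mice had a like median for the immediate early genes (-0.20) and 7 members called lower, against 2.56% of all genes. Btg2 had -0.60 in them, Arc -0.54, Dusp1 -0.47 and Fos -0.32. Some members of this list and of the glucocorticoid list respond to both signals, and the medians of the lists had opposite signs in WT. The cAMP response element TGACGTCA was found in the promoters of Btg2 and Dusp1, which are 2 of 12 members with a promoter (16.7%), and in 3.74% of all promoters.

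Clock genes had small differences of both signs. The clock is a loop in which CLOCK and BMAL1 switch on period and cryptochrome genes whose products then repress them. Of 19 compared, 1 was called higher (all genes, 1.88%) and 2 lower (3.11%), the median was 0, and at any size 6 were above and 5 below by more than 2 expected errors (all genes, 7.86% and 7.20%). Per2 and Cry1 of the repressing limb had 0.26 ± 0.09 and 0.25 ± 0.10, Ciart 0.26 ± 0.12 and Nfil3 0.31 ± 0.14. By contrast, Npas2, a partner of BMAL1, had -0.38 ± 0.13, Nr1d1 -0.25 ± 0.08, Bhlhe40 -0.20 ± 0.08 and Rorb -0.45 ± 0.15, whereas Nr1d2 had 0.23 ± 0.07. Arntl (BMAL1), the core activator, had -0.04 ± 0.09. The time of day of tissue collection is not given in the sources used here. The E-box CACGTG was in 5 of 17 clock promoters (29.4%) and in 12.0% of all.

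**Figure D3:**
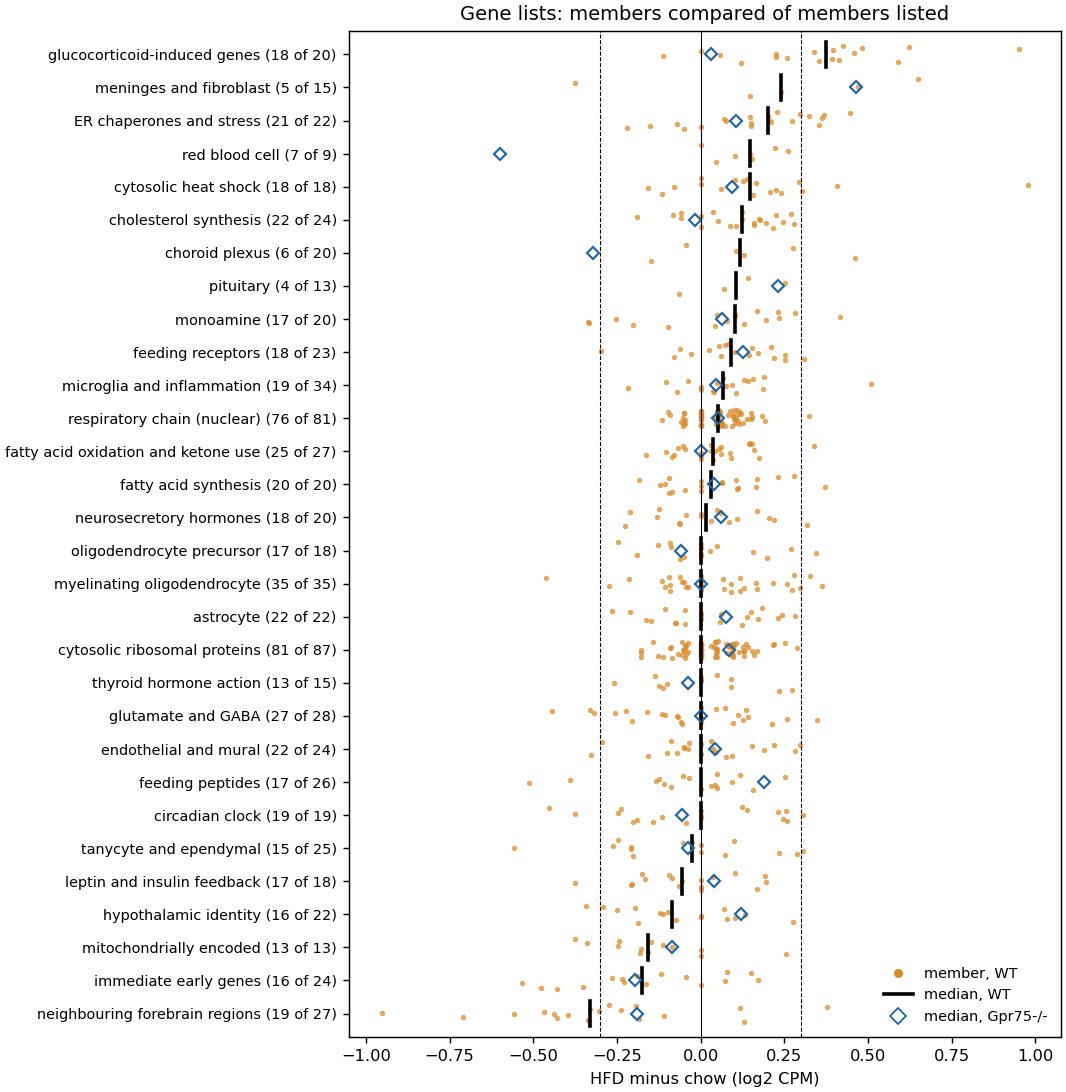
HFD minus chow (horizontal axis, log2 CPM) for the members of 30 gene lists in WT (orange points), with the WT median (black bar) and the Gpr75-/- median (blue diamond); dashed lines mark 0.3 in each direction, and each label gives members compared of members listed. The glucocorticoid-induced genes have the highest WT median (0.37) and the genes of neighbouring forebrain regions the lowest (-0.33), while most cell type lists sit at or near 0.

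The protein-coding genes with the largest differences came from several classes. Above Sgk1 lay only Hspa1b and Xlr3b, a gene of an X-linked family of similar copies whose 0.97 came with an expected error of 0.72. Arl4d, a small GTPase of the ARF family, had 0.70 ± 0.19, with levels of 2.41 and 3.11. Smim3, a small membrane protein, had 0.67 ± 0.16, with levels of 2.86 and 3.53. Slc22a15, a transporter, had 0.66 ± 0.36 in WT and -0.41 in the Gpr75-/- mice. Ptgds, the prostaglandin D2 synthase of meninges and oligodendrocytes, had 0.65 ± 0.50 in WT and 1.05 in the Gpr75-/- mice. Plekhf1 had 0.60 ± 0.21 and nearly the same value, 0.59, in the Gpr75-/- mice.

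In the other direction the greatest difference was that of Gm10800 (-1.48), a repeat-rich gene model with an expected error of 1.07. Gabrb2 encodes a beta subunit of the GABA-A receptor, and it stood at 6.67 in WT chow and 5.68 in WT HFD mice, a difference of -0.99 ± 0.44 or 0.502-fold. The Gpr75-/- mice had 5.92 and 5.02 for Gabrb2, a difference of -0.90. Nexn, an actin-binding protein, likewise had much the same difference in both genotypes, at -0.68 ± 0.15 and -0.70. Atp7a, the copper exporter, had -0.81 ± 0.20 in WT and -0.57 in the Gpr75-/- mice.

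Hes5, a Notch target of neural progenitors and astrocytes, stood at 3.32 in WT chow and 2.56 in WT HFD mice (-0.76 ± 0.19). In the Gpr75-/- mice Hes5 stood at 2.63 and 2.66, so that WT chow was here the high group of the 4. Lrrk2 (a kinase mutated in familial Parkinson disease), Dnajc13 (an endosomal co-chaperone) and Col27a1 (a fibrillar collagen) had -0.74 ± 0.16, -0.73 ± 0.20 and -0.72 ± 0.19. Their transcripts are 8275, 8012 and 7612 bases long. Ppp1r1b, also among the largest differences, is on the list of neighbouring forebrain regions described next.

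Genes listed as markers of the tissue around the hypothalamus were mostly lower on HFD. Of 27 markers of striatum, thalamus, cortex and septum, 19 were compared, 11 were called lower (all genes, 3.11%) and 1 higher (1.88%), and the median was -0.33. Of the 11, 5 were past 2 expected errors (all genes, 2.31%). Among these 5, Lhx2 (-0.56 ± 0.16) is also on the tanycyte list and Drd2 (-0.34 ± 0.13) on the monoamine list. Not every member therefore marks surrounding tissue alone. Of the same genes 8 were called lower in the Gpr75-/- mice (all genes, 2.56%), and the median was -0.19. The summed level of the 19 was 10.57 in WT chow and 10.37 in WT HFD mice (log2 of summed CPM). Eomes, Neurod2, Neurod6, Emx1, Adora2a, Gpr151 and Otx2 were among those not compared.

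Ppp1r1b (DARPP-32) of striatal neurons stood at 4.78 in WT chow and 3.82 in WT HFD mice, and at 4.10 and 3.89 in the Gpr75-/- mice. WT chow was thus the high group. The spread between chow mice was wide for this gene, with a standard error of the genotype difference of 0.707 in the chow set, against 0.143 in the HFD set. Wider spread on chow was also found for Hspa1b (0.443 against 0.167), Penk (0.406 against 0.0627), Gabrb2 (0.543 against 0.311) and Egr3 (0.498 against 0.205). Other named genes had the wider spread on HFD, such as Ptgds (0.0984 on chow against 0.705), Dcn (0.193 against 0.347) and Gpr75 (0.120 against 0.345). Each standard error covers both genotypes, so it does not give the spread of the WT mice alone. Drd1, Pde10a and Rgs9 of the same neurons had -0.33 ± 0.52, -0.44 ± 0.22 and -0.30 ± 0.21.

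The thalamic genes Prkcd, Lef1 and Gbx2 had -0.47 ± 0.22, -0.40 ± 0.19 and -0.43 ± 0.26 in WT, and -0.74, -0.52 and -0.82 in the Gpr75-/- mice. Slc17a7, the cortical and thalamic glutamate transporter, had -0.33 ± 0.36 in WT and -0.92 in the Gpr75-/- mice. Tbr1, a cortical transcription factor, was the 1 member called higher, at 0.38 ± 0.15. How much neighbouring tissue each dissection held, and its part in the differences of Penk, Drd2 (-0.34 ± 0.13), Gabrb2 or the immediate early genes, was not tested.

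Transcription factors that mark the hypothalamus itself had a median of -0.08 over 16 of 22 members. Six3 was the only one called (all genes, 3.11% lower), at -0.34 ± 0.11. Sim1 and Otp of the paraventricular nucleus had -0.29 ± 0.18 and -0.25 ± 0.17, and Nkx2-1 of the ventral hypothalamus -0.12 ± 0.12. Fezf1 of the ventromedial nucleus had 0.28 ± 0.16.

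Marker lists of glia and vessels had medians at or near 0. Astrocyte markers had a median of 0 over 22 members with no call, Gjb6 (connexin 30) at 0.28 ± 0.08 and Slc4a4 at -0.27 ± 0.12 being farthest from 0. Microglial and inflammatory genes had 0.07 over 19 of 34 members, with 1 call (all genes, 1.88% higher), the interferon-induced Ifit3 (0.51 ± 0.16). Il1b, Tnf, Ccl2 and Cd68 were not among the genes compared. Cx3cr1, the microglial fractalkine receptor, had -0.22 ± 0.09. Endothelial and mural markers had a median of 0 over 22 members, with Cldn5, the tight junction protein, called lower at -0.33 ± 0.15 (all genes, 3.11%). At any size 3 members were above and 1 below by more than 2 expected errors (all genes, 7.86% and 7.20%), and Slco1a4, a transporter of the barrier, had 0.30 ± 0.08.

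Myelinating oligodendrocyte genes were mixed and did not move as a block. All 35 listed were compared, with a median of 0, 2 called higher (all genes, 1.88%) and 1 lower (3.11%), and at any size 9 were above by more than 2 expected errors (all genes, 7.86%) and 1 below (7.20%). Tspan2, a tetraspanin of myelin, stood at 8.25 in WT chow and 8.58 in WT HFD mice (0.33 ± 0.06). Gsn (gelsolin) had 0.36 ± 0.08, Ermn 0.30 ± 0.07, Ugt8a, which makes galactolipids, 0.28 ± 0.09, Cldn11 0.27 ± 0.07 and Mal 0.26 ± 0.09. Mag and Olig1 had 0.00, with expected errors of 0.07 and 0.08, and Ppp1r14a had -0.46 ± 0.14. Among 17 precursor genes, with a median of 0, Gpr17 of committed precursors was the 1 member called, at 0.34 ± 0.08 (all genes, 1.88% higher).

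Markers of tissue at the ventricle and of blood were read for traces of other material. Tanycyte and ependymal genes had a median of -0.03 over 15 of 25 members (0.10 with a minimum mean count of 500), with Lhx2 at -0.56 ± 0.16 (-0.53 in the Gpr75-/- mice) and Foxj1 at 0.31 ± 0.13. Of 20 choroid plexus genes 6 were compared, with a median of 0.12 and a summed level of 8.59 in WT chow and 8.69 in WT HFD mice. With levels taken from the mean counts that median was -0.09, so it has no stable direction. Col8a1 was the 1 member called higher (0.46 ± 0.39; all genes, 1.88%), within 2 expected errors. In the Gpr75-/- mice the list's median was -0.32, with 3 members lower (all genes, 2.56%). Ttr, the defining choroid plexus transcript, was left out by the level filter, since its mean normalised count was 2910 in the chow set but 48.5 in the HFD set. Its WT means were 2.48 and 1.85, with an expected error of 1.58, so no direction can be read for WT. Its means in the Gpr75-/- mice were 3.69 on chow and 0.43 on HFD. Of 9 red blood cell genes 7 were compared, and Hbb-bs had 0.26 ± 0.19 in WT but -0.60 in the Gpr75-/- mice. The 5 compared of 15 meningeal genes had a median of 0.24, which was 0.53 with no minimum count and 0.65 with a minimum of 500. Ptgds and Dcn (0.47 ± 0.28) were called higher (all genes, 1.88%) and Igfbp2 lower (3.11%), all within 2 expected errors. The summed level of the 5 was 8.26 in WT chow and 8.86 in WT HFD mice, most of it from Ptgds alone (8.06 and 8.71). The part of meningeal tissue in other results was not tested. Of 13 pituitary genes 4 were compared, none was called, and Gh and Prl were not among the genes compared.

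Transcripts encoded by mitochondrial DNA leaned lower on HFD. The median of the 13 was -0.16, 7 had a negative difference past 2 expected errors (all genes, 7.20%), and mt-Nd6 (-0.37 ± 0.07) and mt-Nd4 (-0.34 ± 0.05) were called (all genes, 3.11%). The rounding of the means is coarse at these high levels. With each difference moved towards 0 by all that rounding allows, mt-Nd6 and mt-Nd4 both fell short of the threshold, mt-Nd4 at -0.25, and the list median was -0.0887. The median in the Gpr75-/- mice was -0.08. Nuclear genes of the respiratory chain, by contrast, had a median of 0.05 over 76 members in WT, with 1 called (all genes, 1.88%), Ndufb4c (0.32 ± 0.18), which is annotated as a processed pseudogene.

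The genes called were not spread evenly over kinds of transcript. Of 291 processed pseudogenes, 49 (16.8%) were higher and 3 (1.03%) lower on HFD, with a median of 0.11. Of 11576 protein-coding genes, 170 (1.47%) were higher and 323 (2.79%) lower. Long noncoding RNAs leaned the other way, with 24 of 254 lower (9.45%) and 7 higher. Gene models still to be experimentally checked (annotated as TEC) had 32 of 125 lower (25.6%) and 3 higher. The processed pseudogene with the greatest difference was Smt3h2-ps4 at 0.77 ± 0.29, and it had 0.43 in the Gpr75-/- mice. Processed pseudogenes share sequence with their parent genes, and which copy the reads came from is uncertain. In the Gpr75-/- mice 8 of the 291 were higher (all genes, 0.892%) and 1 lower (2.56%).

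Long transcripts leaned lower on HFD. The protein-coding genes were split into 10 equal classes by their longest annotated transcript. In the longest class, from 7202 bases up, 120 of 1157 genes (10.4%; all genes, 3.11%) were lower and 2 higher (all genes, 1.88%), with a median of -0.10. In the next class 41 were lower and 13 higher, and in each of the 8 classes below, 16 to 30 were lower and 13 to 25 higher, with medians of 0. The median length was 5510 bases for the lower genes, 3598.5 for the higher genes and 3662 for all protein-coding genes. In the Gpr75-/- mice 60 of the 1157 genes of the longest class were lower (all genes, 2.56%) and 4 higher (0.892%), with a median of -0.06. Across 12312 genes with a length, which share libraries and are not independent, the Spearman correlation between length and difference was -0.17 in WT and -0.26 in the Gpr75-/- mice.

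**Figure D4:**
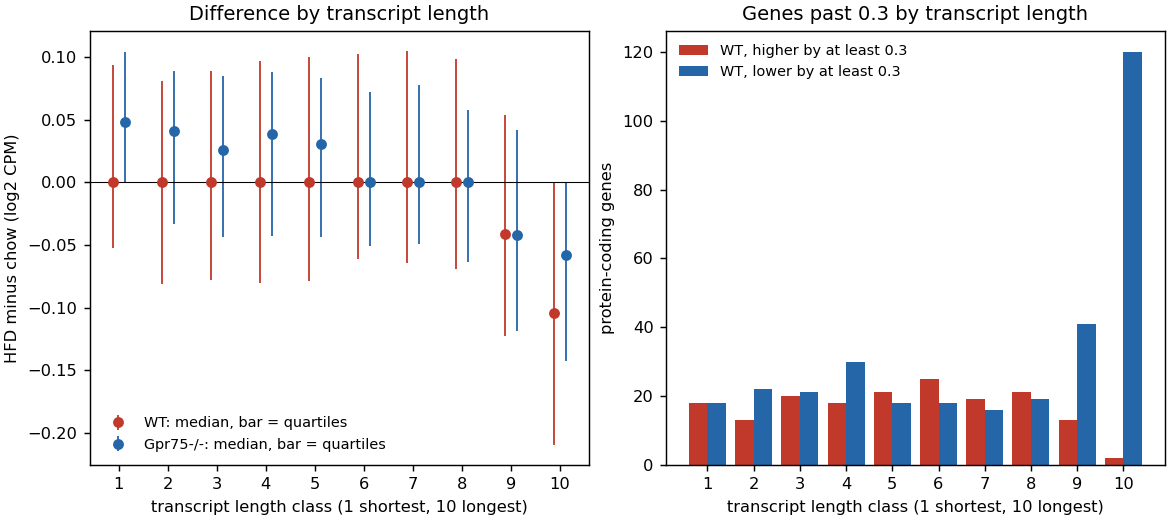
Left, HFD minus chow (log2 CPM, median with quartiles) in 10 equal classes of protein-coding genes ordered by transcript length, in WT (red) and Gpr75-/- mice (blue); right, the number of genes higher or lower by at least 0.3 in WT in each class. The longest class stands apart with 120 lower genes (10.4%; all genes, 3.11%), 2 higher genes (all genes, 1.88%) and a WT median of -0.10.

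Insr, Lrrk2, Dnajc13, Col27a1, Rorb, Pde10a, Foxo1, Igf1r, Sim1, Slc4a4 and Atf6, all with negative differences above, are in the longest class. Npy, Hes5, Ppp1r1b, Penk and Egr3 were lower too and have shorter transcripts. Among the glucocorticoid-induced genes Sgk1, Tsc22d3 and Arrdc2 have transcripts of 3096, 2876 and 2355 bases, in classes whose median was 0. The part of transcript length in any of these differences was not tested.

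The Gpr75-/- mice, which are other animals on the same diets, had mostly the same sign at the genes called in WT but smaller differences. Of the 232 higher genes, 186 (80.2%) were above 0 in the Gpr75-/- mice, as were 46.0% of all genes. Of these 232, 28 (12.1%) were called higher in them as well, against 0.892% of all genes. Of the 384 lower genes, 327 (85.2%) were below 0 there, as were 36.9% of all genes, and 96 (25%) were called lower, against 2.56%. The median was 0.35 in WT and 0.12 in the Gpr75-/- mice for the higher genes, and -0.37 and -0.18 for the lower. Genes chosen for a large difference in one set of mice have smaller ones in another set by selection alone, so the medians cannot be read as a weaker response.

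Across all 12331 genes the Spearman correlation between the WT and Gpr75-/- diet differences was 0.44. The genes share libraries, and both genotypes share the diet and the normalisation of each set. Called higher in both were Sgk1, Plekhf1 and Ptgds, and called lower in both were Gabrb2, Nexn, Lhx2 and Btg2. Tsc22d3, Hspa1b, Npy, Hes5 and Ppp1r1b were called in WT but had 0.06, 0.22, 0.04, 0.03 and -0.21 in the Gpr75-/- mice. Pomc showed the reverse, being called in the Gpr75-/- mice (0.99) and not in WT (0.25).

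**Figure D5:**
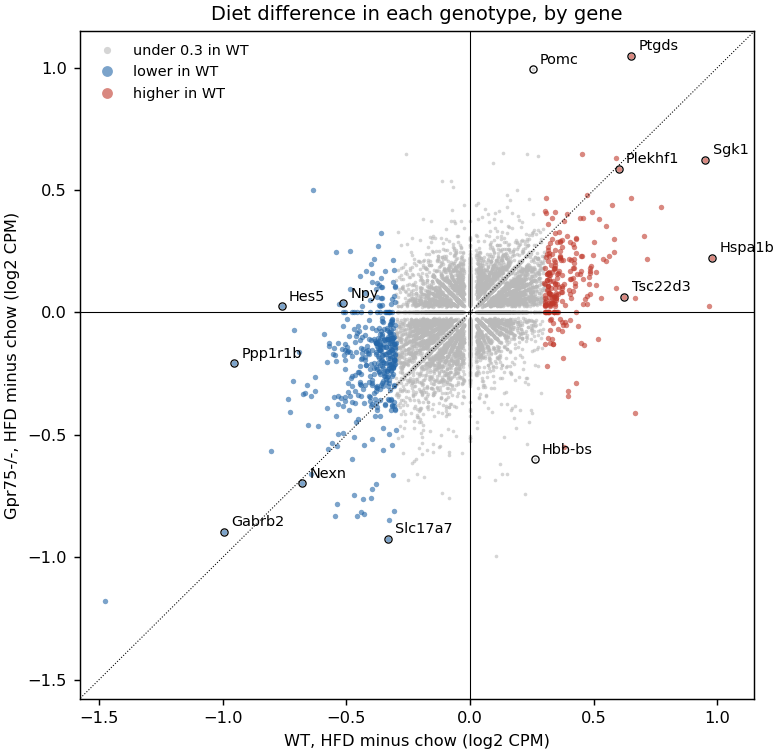
HFD minus chow in Gpr75-/- mice (vertical axis, log2 CPM) against the same in WT mice (horizontal axis, log2 CPM), with 1 point per gene, genes called in WT in red (higher) and blue (lower), and the dotted line where both are equal. Sgk1, Plekhf1, Nexn and Gabrb2 lie off 0 in both genotypes, Tsc22d3, Npy and Hes5 near 0 in the Gpr75-/- mice, and Pomc high in the Gpr75-/- mice.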

How the data were processed

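Hypothalamic RNA of 12 mice in 4 groups of 3 was sequenced as paired reads from SMART-Seq libraries, a kit whose strand handling is not stated. The authors used STAR, featureCounts, StringTie and DESeq2 with build GRCm39, per the submitters' processing notes, which give no versions. The authors deposited 1 table per diet with, for each genotype, a group mean per gene on a log2 scale, as log2 of (log2 CPM + 1) rounded to 2 decimals, which was judged from the values: 2 raised to the value, minus 1, lay within 0.1 of log2 of the mean count scaled to CPM in 99.8% of genes. In the same tables the authors gave the mean normalised count of each gene (baseMean, a signal scaled by DESeq2 size factors), also deposited, and a standard error on a log2 scale. The authors' genotype fold changes and p-values in the tables were not used.

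Tables were joined by Ensembl identifier. Genes needed a mean normalised count of at least 100 in both; 82 genes passed in the chow table alone and 178 in the HFD table alone. Just inside the minimum lay Gm10767 (100.001 and 111.487; WT difference 0.19) and just outside it Htra3 (99.9633 and 112.458; WT difference 0.00). The expected error is the root mean square of the standard errors of the genotype difference in both diet sets, and it covers the spread between mice only. Values per mouse were not used here, so depth per mouse, intervals and tests between diets are not given. Whether the mice of a group are separate litters is not stated.

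The comparison, the gene lists and the promoter motifs were chosen with earlier results of these data known. The genes named are the 10 protein-coding genes with the largest difference in each direction, the 2 farthest from 0 in each list, and 12 genes fixed by name; further members of a list were named after their values were seen, and some genes are not reported here. Alternatives were the median or a trimmed mean as centre, a minimum of 500 or none, a threshold of 0.5, the rounding limit, 2 expected errors, and levels from the mean counts. Transcript lengths came from GENCODE M21 by identifier (99.8% matched), promoters from RefSeq (GRCm38.p6). Python 3.11.15, numpy 2.4.6, pandas 2.3.3 and matplotlib 3.10.9 were used, and the scripts were tested on simulated data.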

Additional observations from a re-analysis of the deposited data

How the results depend on the processing

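The main counts were 232 genes higher and 384 lower. They depended on the thresholds: 27 and 58 at a difference of 0.5, 65 and 140 of 7283 genes with a minimum mean count of 500, and 718 and 1082 of 16408 genes with no minimum. With each difference moved towards 0 by the rounding limit, 146 genes were higher and 266 lower. Centring on a trimmed mean, a shift of 0.0275, gave 164 and 523. Levels taken from the mean counts gave 228 and 394 genes, with 215 of the higher and 368 of the lower genes shared. Of 150 list medians under the 5 alternatives that can move them 147 moved by less than the list's median expected error, the exceptions being the heat shock genes (0.0757) and the mitochondrially encoded genes (-0.0887) at the rounding limit and the pituitary genes (-0.0644) with the minimum of 500. The sign of the median turned for these pituitary genes, for tanycyte and ependymal genes with the same minimum (0.10), for choroid plexus genes with levels from the mean counts (-0.09) and for neurosecretory genes with the trimmed mean (-0.01). The error used for lists is that of a single gene and not of a median, so large moves could stay within it. The meningeal median went from 0.24 to 0.65 with the minimum of 500, against an error of 0.42. Under the 3 alternatives that can move a single gene, 235 of 237 values of 79 named genes moved by less than their expected error, mt-Nd6 and mt-Nd4 at the rounding limit being the others. No named gene changed sign.

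No paired analysis was possible because the tables used here give 1 mean per group, and leaving out each mouse in turn was not run for the same reason.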

Other observations

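Several further gene groups had small WT differences. Of 20 genes of fatty acid and lipid synthesis, with a median of 0.03, Elovl2, which elongates polyunsaturated fatty acids, was the only one called (0.37 ± 0.13; all genes, 1.88% higher), with levels of 4.17 in WT chow and 4.54 in WT HFD mice and of 4.50 and 4.43 in the Gpr75-/- mice. Of 25 genes of fatty acid oxidation and ketone use, with a median of 0.04, Pdk4 alone was called, against the same share of all genes. Cytosolic ribosomal protein genes had a median of 0 over 81 members and thyroid hormone action genes 0 over 13, with no call in either list.

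Receptors of fast and monoamine transmission differed member by member. Among 27 genes of glutamate and GABA transmission, with a median of 0, Gabrg1 was higher (0.35 ± 0.07; all genes, 1.88%), and Grm5 (-0.44 ± 0.18), Grin2b (-0.32 ± 0.07) and Slc17a7 (-0.33 ± 0.36) were lower (all genes, 3.11%). Gabrb2 (-0.99 ± 0.44), described above, was not on this list. Grm5 and Grin2b have transcripts of 8047 and 24060 bases, in the longest class. Among 17 monoamine genes, with a median of 0.10, Htr2a, a serotonin receptor, was higher (0.42 ± 0.12) and the dopamine receptors Drd2 (-0.34 ± 0.13) and Drd1 (-0.33 ± 0.52) were lower, against the same shares. Gabrg1 stood at 7.22 in WT chow, 7.57 in WT HFD, 7.46 in Gpr75-/- chow and 7.51 in Gpr75-/- HFD mice, and Htr2a at 4.28, 4.70, 4.35 and 4.62.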
